A study of Rattus norvegicus with 48 samples.

Results

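The vertebrate Hox clusters carry microRNA (miRNA) genes between their protein coding genes, and the products of 2 such families were followed in rat plasma: rno-miR-10a-5p and rno-miR-10b-5p of the miR-10 family, and rno-miR-196a-5p, rno-miR-196b-5p and rno-miR-196c-5p of the miR-196 family. They were chosen by name, with earlier results of these data known, and all 5 were among the 645 mature miRNAs counted. Blood was drawn from the tail vein of 12 male rats, given as Sprague-Dawley and aged 12 weeks in the methods, before surgery (baseline) and again when 1, 4 and 8 weeks had passed since a calvaria defect was made, a round hole drilled in the skull bone. This gave 48 plasma samples. The abstract of the study names the strain as Wistar instead, so the strain is uncertain. On microcomputed tomography 6 rats were selected as strong regenerators (good regeneration in the labels) and 6 as weak regenerators (bad regeneration). The defects had been left empty or filled with a collagen hydroxyapatite (CHA) scaffold, alone, with plasmid DNA for BMP2 and miR-590-5p, or with extracellular vesicles of mesenchymal stromal cells, and these treatments were unbalanced between strong and weak regenerators and were not assigned to single rats here. All rats thus carried a defect at the later time points, no unoperated rats were included, and baseline samples entered the groups through the animal in their label.

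A miRNA is cut from a hairpin precursor, whose 5' and 3' arms can each yield a mature product (5p and 3p), and pairs with messenger RNAs mainly through its seed, bases 2 to 8. Hox genes encode transcription factors that set position along the body axis, and miR-10 and miR-196 lie within the clusters and include Hox messenger RNAs among their known targets. miR-196 pairs almost fully with the messenger RNA of Hoxb8 and directs its cleavage. In the RefSeq annotation of the rat assembly GRCr8, Mir10a lies between Hoxb5 and Hoxb4 and Mir10b within the Hoxd4 locus. Mir196a lies between Hoxc10 and Hoxc9, Mir196b between Hoxa9 and Hoxa10, and Mir196c between Hoxb13 and Hoxb9. The members therefore come from all 4 Hox clusters, with 2 of them in the Hoxb cluster.

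The mature sequences show how little separates the members, and are given from RefSeq (GRCr8), 5' to 3', with the seed in capitals.
miR-10a-5p: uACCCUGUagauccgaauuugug
miR-10b-5p: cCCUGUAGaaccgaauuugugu
miR-196a-5p: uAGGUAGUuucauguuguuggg
miR-196b-5p: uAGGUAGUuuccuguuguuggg
miR-196c-5p: uAGGUAGUuucguguuguuggg
The 3 miR-196 members shared the seed AGGUAGU, which no other of the 693 mature miRNAs in the table had. They were identical at 21 of 22 bases, and counted from the 5' end the single difference was A12C from miR-196a-5p to miR-196b-5p, A12G from miR-196a-5p to miR-196c-5p and C12G from miR-196b-5p to miR-196c-5p. Aligned over 21 bases, miR-10a-5p and miR-10b-5p differed by 1 substitution, U12A in the numbering of miR-10a-5p. The listed 5' end of miR-10b-5p lay 2 bases further into the shared sequence, so that its seed by position read CCUGUAG where that of miR-10a-5p read ACCCUGU. The hairpins are shown with the 5p arm in capitals, since the bases ua stand directly before the listed start of miR-10b-5p.
Mir10a: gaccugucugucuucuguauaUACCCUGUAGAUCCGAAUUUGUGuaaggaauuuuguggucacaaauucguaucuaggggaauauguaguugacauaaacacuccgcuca
Mir10b: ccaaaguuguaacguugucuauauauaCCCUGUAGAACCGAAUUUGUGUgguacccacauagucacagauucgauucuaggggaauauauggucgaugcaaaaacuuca
Reads had been assigned with 1 mismatch allowed, which is as much as separates these members, so how reads were divided within each family is uncertain.

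Levels are given as RPM, the reads of a miRNA per 1000000 miRNA reads of the library. Total miRNA counts ranged from 393259 to 1586398 per sample, and intervals from such counts would cover counting error only, because reads were not shown to be separate molecules. UniSp2, a synthetic RNA added at RNA extraction, stood at 91.1 to 143.9 reads per 1000 miRNA reads in the 12 libraries of week 8 and at 23.3 to 60.4 in the other 36. The libraries of week 8 therefore stood apart as a whole, and what set them apart cannot be told apart from the time point. In plasma, fewer releasing cells and less RNA from each cell cannot be told apart either.

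Both miR-10 members were well represented in plasma, and miR-196c-5p was scarce. miR-10a-5p averaged 528 ± 317 RPM (SD, n = 48) and ranked 103 of 645 miRNAs, and miR-10b-5p followed with 481 ± 282 RPM at rank 108. These neighbours in the order did not differ beyond their spread, and miR-10a-5p was the higher of the pair in 26 of 48 samples. miR-196b-5p averaged 211 ± 92.1 RPM and miR-196a-5p 104 ± 80.4 RPM, and miR-196b-5p was the higher in 47 of 48 samples. miR-196c-5p averaged 13.9 ± 10.4 RPM, with counts of 0 to 34 reads per library and no read in 1 library (weak regenerator 7 at week 1), so that single values of this miRNA rest on few reads. The order miR-10a-5p or miR-10b-5p, then miR-196b-5p, miR-196a-5p and miR-196c-5p was nearly constant. miR-10a-5p exceeded miR-196b-5p in 47 samples and miR-10b-5p exceeded it in 44, while miR-196a-5p exceeded miR-196c-5p in 47.

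**Figure D1:**
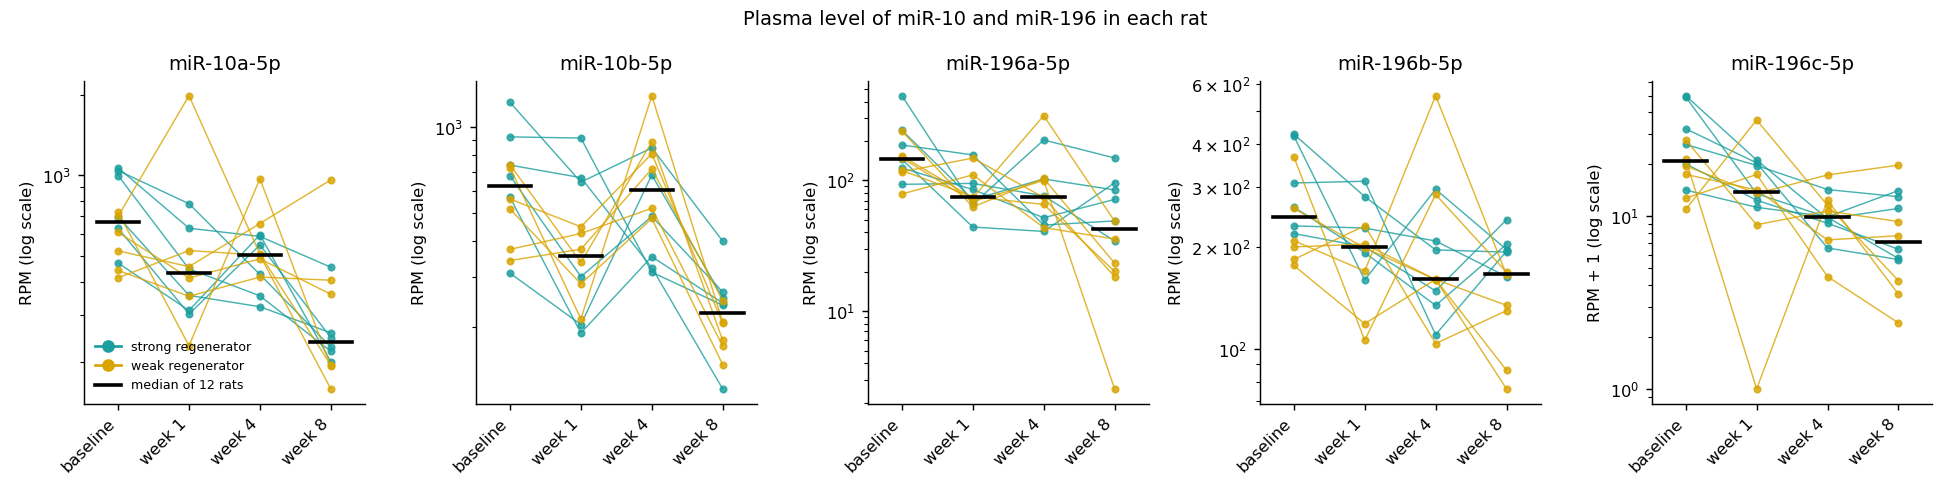
Level of each member in RPM on a log axis (RPM + 1 for miR-196c-5p, which had 1 sample without a read) at the 4 time points, with a line per rat coloured by regeneration group and a black bar at the median of the 12 rats. The median of each member was lower at week 8 than at baseline, and the strong and weak regenerators overlapped in every panel and time point.

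The first question was whether the members changed in plasma after surgery. At week 8 all 5 members had fallen against baseline, by 38% for miR-196b-5p to 69% for miR-196a-5p. At week 1 the fall of miR-196a-5p alone passed the test and at week 4 that of miR-196c-5p alone. No member rose against baseline at any week. Calls are at a false discovery rate (FDR) under 0.05 in edgeR's quasi-likelihood test, adjusted over all miRNAs tested.

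miR-10a-5p ranged from 413 to 1064 RPM at baseline with a median of 666. Its medians were 429 RPM at week 1 (230 to 1980), 504 at week 4 (322 to 969) and 237 at week 8 (159 to 960). At week 8 10 of 12 rats were below the lowest baseline value, and 11 of 12 were below their own baseline. The log2 fold change at week 8 was -1.04 ± 0.28 (SE), a level of 0.485 of baseline, with an FDR of 0.00173. At weeks 1 and 4 the log2 fold changes were -0.14 ± 0.27 and -0.28 ± 0.27, with an FDR of 0.741 and 0.614, and 10 and 8 of 12 rats were below their own baseline. The value at week 1 rested on weak regenerator 3, which had 1980 RPM, and without this rat it was -0.57.

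miR-10b-5p, which is encoded in the Hoxd cluster, ran from 309 to 1223 RPM at baseline with a median of 622. The medians were 356 RPM at week 1 (190.7 to 917), 601 at week 4 (311 to 1291) and 224 at week 8 (121 to 400). It was thus lowest at week 8, when 11 of 12 rats were below the lowest baseline value and 12 of 12 below their own baseline. Its fall at week 8 was -1.46 ± 0.24 on the log2 scale (FDR 1.11e-06). The value at week 1 was -0.53 ± 0.23 (FDR 0.0946; lower in 10 of 12 rats) and that at week 4 was 0.10 ± 0.23 (FDR 0.879; higher in 6 of 12 rats). From week 1 to week 4 it was higher in 10 of 12 rats, with a log2 fold change of 0.64 ± 0.23 that did not pass the test (FDR 0.33).

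miR-196a-5p, from the Hoxc cluster, lay between 78.8 and 444 RPM at baseline with a median of 147. The medians at weeks 1 and 4 were 74.2 RPM (44.0 to 157) and 75.2 RPM (40.7 to 313). At week 8 the median was 42.2 RPM, with values from 2.54 to 148, and 9 of 12 rats were below the lowest baseline value. At week 1 the log2 fold change was -0.89 ± 0.31 with an FDR of 0.0417, and 9 of 12 rats were below their own baseline. This call did not hold with the rat as a block, the fit that compares each rat with its own baseline (-0.71, FDR 0.0745), and was lost when any of 8 rats was left out. At week 4 it was lower in 11 of 12 rats, but the value of -0.74 ± 0.30 did not pass (FDR 0.178). At week 8 the log2 fold change of -1.67 ± 0.32 was the largest of the 5 (FDR 1.85e-05; lower in 12 of 12 rats).

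miR-196b-5p, from the Hoxa cluster, had the smallest change at week 8. Its medians were 244 RPM at baseline (176 to 428), 199 at week 1 (106 to 311), 160 at week 4 (104 to 556) and 167 at week 8 (76.2 to 240). At week 8 7 of 12 rats were below the lowest baseline value. The log2 fold change at week 8 was -0.69 ± 0.20 (FDR 0.00434; lower in 11 of 12 rats). The values at weeks 1 and 4 were -0.34 ± 0.20 and -0.32 ± 0.20, lower in 9 and 11 of 12 rats, and did not pass (FDR 0.232 and 0.379).

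miR-196c-5p, the second member from the Hoxb cluster, had medians of 19.8 RPM at baseline (9.95 to 48.9), 12.9 at week 1 (0 to 35.1), 8.90 at week 4 (3.47 to 16.3) and 6.08 at week 8 (1.41 to 18.8). At each of weeks 4 and 8, 8 of 12 rats were below the lowest baseline value. It had fallen by week 4, with a log2 fold change of -1.25 ± 0.30 (FDR 0.00394; lower in 11 of 12 rats), and by week 8, with -1.53 ± 0.32 (FDR 7.03e-05; lower in 11 of 12 rats). At week 1 its mean level was under the filter for testing in that comparison (36.9 RPM), and the log2 fold change was -0.58 ± 0.29 without an FDR.

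The calls stand against the background of all miRNAs tested. How many rats fell below the lowest baseline value or their own baseline was not counted over all miRNAs. Those counts of rats therefore have no background here. At week 8, 162 of 620 miRNAs were called lower, or 26.1%, against 5 of 5 members. The members were chosen with earlier results of these data known, so their count is a description and not a test. The miRNAs tested at week 8 reached down to a mean of 0.035 RPM, and the share among those as abundant as the members was not counted. The median log2 fold change was -1.46 over the members and -0.26 over all miRNAs tested. At week 4 26 of 645 were called lower, or 4.03%, against 1 of 5 members, and at week 1 21 of 232, or 9.05%, against 1 of the 4 members tested. Scaled to UniSp2 in place of the miRNA total, the 5 members were called lower at week 8 as well, with log2 fold changes of -2.64 to -3.62. The median over 310 miRNAs with a mean of at least 10 RPM was then -2.01, against -0.12 in the test on miRNA totals, so all 5 members lay below that median on both scales.

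**Figure D2:**
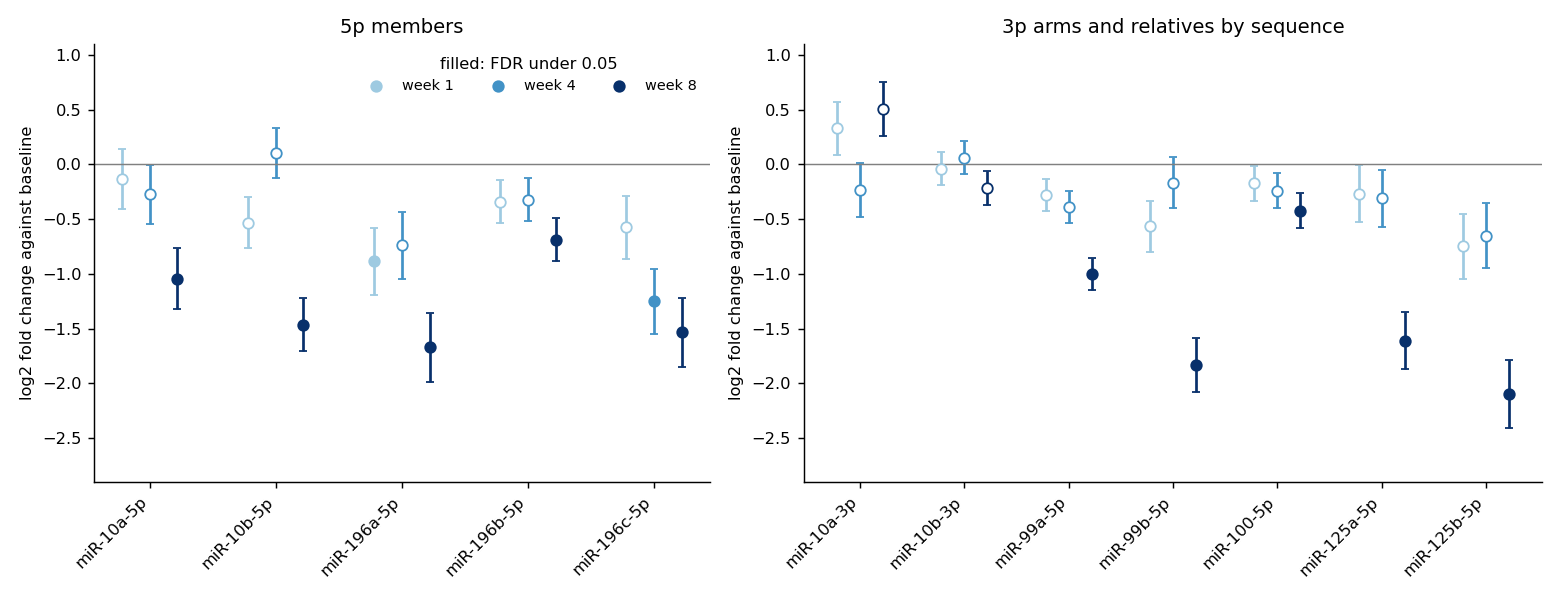
Log2 fold changes against baseline at weeks 1, 4 and 8, with bars of 1 SE of edgeR's fit over 48 samples, for the 5 members and for 7 related miRNAs; filled points have an FDR under 0.05. The 5 members are filled at week 8, between -0.69 and -1.67, as are the 5 relatives by sequence, while miR-10a-3p and miR-10b-3p are open at all weeks.

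Between consecutive weeks only some members were called, and the steps of the members were not tested against each other. From week 4 to week 8, miR-10b-5p fell by 1.57 ± 0.24 on the log2 scale (FDR 2.75e-07; lower in 12 of 12 rats), miR-196a-5p by 0.93 ± 0.32 (FDR 0.0147; 9 of 12 rats) and miR-10a-5p by 0.77 ± 0.28 (FDR 0.0212; 11 of 12 rats). miR-196b-5p and miR-196c-5p had -0.36 ± 0.20 and -0.28 ± 0.34, with an FDR of 0.146 and 0.528. Over all miRNAs 137 of 532 were called lower in this step, or 25.8%, against 3 of 5 members. The call of miR-10a-5p was lost without any of 6 rats and that of miR-196a-5p without any of 3 rats. With RLE normalization miR-10a-5p was not called either (-0.63, FDR 0.0589), and the summed miR-196 family was not called (-0.48, FDR 0.0803), whereas the call of miR-10b-5p was kept in all 12 fits with a rat left out. From week 1 to week 4 none of the members was called, and none of 645 miRNAs was called lower (0%) by edgeR, though 79 had an unadjusted p under 0.05. DESeq2 called 1 miRNA there and limma-voom 0.

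The summed levels of cell type markers differed between the time points as well, and their part in these changes was not tested. The summed RPM of 4 miRNAs of leukocytes, all read in each of the 48 libraries, had a median of 26087 at baseline (13567 to 49843) and of 10672 at week 8 (8114 to 17293), with 18602 and 22718 at weeks 1 and 4. That of 2 liver miRNAs went from 9784 (4149 to 13108) to 4202 (3166 to 10511). The sum of 6 red blood cell miRNAs had a median of 261475 RPM at baseline (200449 to 303666) and of 324202 at week 8 (272042 to 380829). Platelet miRNAs (3 of 4 listed) had medians of 76786 RPM at baseline and 66832 at week 8, and endothelial miRNAs of 14590 and 15627. Muscle miRNAs, of which 2 of 4 were read in every library, had medians of 1375 RPM at baseline and 2168 at week 8. Every list had reads in the plasma, and none of the markers was at 0 throughout.

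Ratios within a library do not depend on the scaling, and were used to compare near-identical members with each other, after 0.5 had been added to each count. The ratio of miR-196a-5p to miR-196b-5p shrank over the course. Its geometric means at the 4 time points were, in order, 0.60, 0.43, 0.45 and 0.25. In single rats it lay between 0.41 and 1.05 at baseline and between 0.043 and 0.76 at week 8. The log2 ratio changed by -1.28 ± 1.09 at week 8 (SD over 12 rats; lower in 12 of 12) and by -0.43 ± 0.35 at week 4 (lower in 12 of 12). Both had a two-sided exact permutation p of 0.000488, the smallest that sign changes over 12 rats can give, or 0.00195 after Benjamini-Hochberg adjustment over the 12 ratio tests. At week 1 the change was -0.47 ± 0.61, lower in 9 of 12 rats (exact p = 0.0205, adjusted p = 0.0368). At weeks 4 and 8 miR-196a-5p was therefore lower relative to miR-196b-5p, which carries the same seed, in every rat. The lowest ratio, in weak regenerator 7 at week 8, rested on 1 read of miR-196a-5p, and without this rat the change at week 8 was -1.01.

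The ratio of miR-10a-5p to miR-10b-5p moved less on average, with geometric means of 1.11, 1.27, 0.87 and 1.31 in the same order. Its change was not steadier between rats. The SD at weeks 1 and 4 was 0.90 and 0.47, against 0.61 and 0.35 for miR-196a-5p to miR-196b-5p, and at week 8 it was 0.91 against 1.09. The shift at week 4, -0.35 ± 0.47 on the log2 scale and lower in 9 of 12 rats, passed the exact test (p = 0.019, adjusted p = 0.0368), while those at week 1 (0.19 ± 0.90, adjusted p = 0.689) and week 8 (0.24 ± 0.91, adjusted p = 0.538) did not. Single rats departed from the pair's usual ratio, with 5.88 in weak regenerator 3 at week 1 and 4.65 in weak regenerator 26 at week 8. In both samples miR-10a-5p was high, at 1980 and 960 RPM, while miR-10b-5p was at 337 RPM in the former and below the week 8 median in the latter. miR-10a-3p, from the same hairpin as miR-10a-5p, was also the highest of its time point in both samples, at 240 and 231 RPM.

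The 3p arms of both miR-10 hairpins were abundant enough to set beside the 5p arms, at 79.4 ± 43.6 RPM for miR-10a-3p and 77.4 ± 23.3 RPM for miR-10b-3p (SD, n = 48). At baseline the 5p arm exceeded the 3p arm by a geometric mean of 9.41 for miR-10a and 7.31 for miR-10b, and at week 8 by 3.12 and 3.20. The log2 ratio had changed at week 8 by -1.59 ± 0.99 for miR-10a (lower in 12 of 12 rats, exact p = 0.000488, adjusted p = 0.00195) and by -1.19 ± 0.85 for miR-10b (lower in 11 of 12, exact p = 0.000977, adjusted p = 0.00293). At week 1 the change was -0.58 ± 0.75 for miR-10a (lower in 9 of 12 rats, adjusted p = 0.0368) and -0.51 ± 0.84 for miR-10b (9 of 12, adjusted p = 0.0886) by the same exact test. At week 4 neither change passed, with -0.07 ± 1.24 and 0.03 ± 1.17 (adjusted p = 0.92 and 0.928). The 3p arms themselves were not called at week 8. miR-10a-3p had a log2 fold change of 0.50 ± 0.25 at week 8 (FDR 0.10) and miR-10b-3p of -0.21 ± 0.15 (FDR 0.274), and from week 4 to week 8 miR-10a-3p rose by 0.74 ± 0.25 (FDR 0.0147; higher in 10 of 12 rats).

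**Figure D3:**
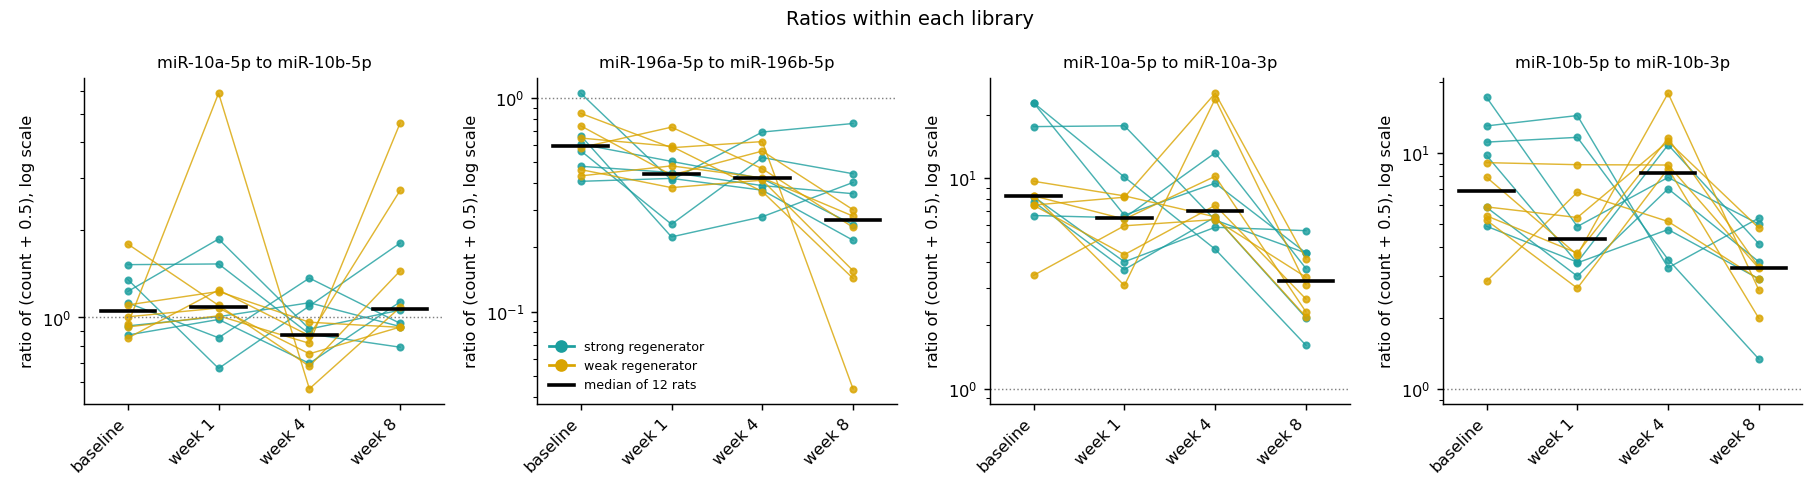
Ratios of counts (0.5 added to each) within each library on a log axis at the 4 time points, with a line per rat coloured by regeneration group and a black bar at the median of 12 rats; the dotted line marks a ratio of 1. The ratio of miR-196a-5p to miR-196b-5p is lower at week 8 than at baseline in 12 of 12 rats, and the 5p to 3p ratio of miR-10a likewise.

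Among the other products of the Hox clusters, the list of 3p arms with miR-615, a miRNA encoded within the Hoxc6 and Hoxc5 loci, had 1 of 6 called lower at week 8, against 26.1% of all miRNAs tested. That was miR-196c-3p, with a log2 fold change of -1.16 ± 0.39 (FDR 0.0131; lower in 10 of 12 rats) at a mean of 5.92 RPM, and it also fell from week 4 to week 8 (-1.60 ± 0.38, FDR 0.00049). miR-615, at 12.2 RPM, had -0.19 ± 0.33 at week 8 (FDR 0.678). miR-196a-3p and miR-196b-3p were read in 12 and 7 of 48 samples and are too scarce to describe. None of the 2 tested at week 1 (miR-10a-3p and miR-10b-3p) and none of the 6 at week 4 was called, and the median of the list at week 8 was -0.53.

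As relatives of miR-10 by sequence, a list of 5 miRNAs was set beside the members: miR-99a-5p, miR-99b-5p, miR-100-5p, miR-125a-5p and miR-125b-5p, which are encoded outside the Hox clusters. The sequences of 4 of them are shown for comparison with those of miR-10, with the seed in capitals.
miR-99b-5p: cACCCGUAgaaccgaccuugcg
miR-100-5p: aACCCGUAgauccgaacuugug
miR-125a-5p: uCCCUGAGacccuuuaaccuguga
miR-125b-5p: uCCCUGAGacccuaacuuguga
Of the 4 compared with miR-10a-5p, miR-100-5p had the most aligned bases identical, 19 of 22, with the substitutions C3A, U6C and U18C in the numbering of miR-10a-5p. miR-99b-5p had 15 of 22, miR-125b-5p 14 of 21 and miR-125a-5p only 10 of 23. The likeness to miR-10 was thus weak for miR-125a-5p, and miR-99a-5p could not be compared, so the name of the list is a loose one. All 5 relatives had fallen at week 8, from -0.42 ± 0.16 for miR-100-5p (FDR 0.0305) to -2.10 ± 0.31 for miR-125b-5p (FDR 1.4e-07), with a median of -1.61. None was called at week 1 or week 4, and 4 of 5 were called lower from week 4 to week 8, against 25.8% of all miRNAs tested. At week 8 members and relatives thus had the same count, 5 of 5 each, against 26.1% of all miRNAs tested.

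Across the 48 samples the members differed in the miRNAs they moved with, given here as a description in which the points share rats, time points and library totals. On log2(RPM + 1), among 305 other miRNAs with a mean of at least 10 RPM, miR-10a-5p was closest to miR-125a-5p (Pearson r = 0.94), miR-195-5p (0.89) and miR-99b-5p (0.83). miR-10b-5p was closest to miR-199a-3p (0.91), miR-24-3p (0.89) and miR-146a-5p (0.89), the last a regulator of innate immune signalling. miR-196a-5p had miR-125b-5p (0.82), miR-99a-5p (0.74) and miR-199a-3p (0.73) as its nearest, and miR-196b-5p had miR-708-5p (0.71), miR-224-5p (0.68) and miR-218a-5p (0.62). miR-196c-5p had miR-503-5p (0.62), miR-125b-5p (0.62) and miR-99a-5p (0.60). The median r over the candidates lay between 0.14 and 0.23. Once the mean of each time point was subtracted, miR-10a-5p still had miR-125a-5p first (0.93) and miR-10b-5p still had miR-199a-3p (0.84). miR-196a-5p and miR-196b-5p then both had miR-708-5p first (0.72 and 0.72), and miR-200c-3p, a miRNA of epithelial cells, was among the first 3 of all miR-196 members (0.70, 0.66 and 0.45). The related miR-200a-3p was among the first 3 of miR-10b-5p at a higher r (0.78). A miR-200 neighbour was thus not particular to the miR-196 members. Between members on that scale r was 0.76 for miR-196a-5p and miR-196b-5p, 0.53 for miR-10a-5p and miR-10b-5p, and -0.11 for miR-10a-5p and miR-196b-5p.

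The second question was whether the members differed between strong and weak regenerators. None of the 5 was called at any time point or over all of them. Over all time points 0 of 645 miRNAs were called (0%), with 64 at an unadjusted p under 0.05, and DESeq2 and limma-voom called 0 as well. The log2 fold changes of strong against weak regenerators over all time points were -0.27 ± 0.19 for miR-10a-5p, 0.12 ± 0.17 for miR-10b-5p, 0.37 ± 0.22 for miR-196a-5p, 0.26 ± 0.14 for miR-196b-5p and 0.28 ± 0.22 for miR-196c-5p, with an FDR between 0.536 and 0.892. With 1 mean per rat, the log2(RPM + 1) of miR-196b-5p was 7.78 in strong and 7.45 in weak regenerators, a difference of 0.33 with a standard deviation between rats of 0.26 (two-sided exact permutation test of 6 against 6 rats, p = 0.0541). In the same exact test miR-196a-5p differed by 0.46 (p = 0.13), miR-196c-5p by 0.47 (p = 0.115), miR-10b-5p by 0.08 (p = 0.745) and miR-10a-5p by -0.06 (p = 0.729). The difference of miR-196a-5p was -0.011 when week 8 was left out.

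At single time points the widest gap was that of miR-196a-5p at week 8. The 6 strong regenerators lay between 34.4 and 148 RPM with a median of 78.0, and the 6 weak regenerators between 2.54 and 48.8 RPM with a median of 21.7. Of the strong regenerators 5 were above the highest weak one and of the weak ones 4 were below the lowest strong one, so that the groups overlapped by few rats. The weak values rested on 1 to 26 reads per library, and such gaps were not counted over all 645 miRNAs. The log2 fold change was 1.57 ± 0.43, or 2.97-fold, with an FDR of 0.20 over 645 miRNAs in edgeR. Over the alternatives the FDR lay between 0.0593 and 0.857. At week 8, 1 of 645 miRNAs was called (0.155%), miR-203b-3p, named here after its value was seen, with 2.13 on the log2 scale and an FDR of 0.0223, and 35 miRNAs had an unadjusted p under 0.05. miR-196b-5p showed the same arrangement at week 8, between 163 and 240 RPM in strong and between 76.2 and 168 RPM in weak regenerators, with 0.54 ± 0.27 on the log2 scale (FDR 0.747). It differs from miR-196a-5p by 1 base and the division of reads is uncertain, so this may not be a separate observation. In the strong regenerators the leukocyte miRNAs had a median of 11556 RPM at week 8 and the platelet miRNAs of 73732 RPM, against 10239 and 61115 RPM in the weak ones, and the muscle miRNAs of 4529 against 1732 RPM. The endothelial miRNAs had 16664.5 against 14874 RPM and the liver miRNAs 4908 against 3809 RPM. The red blood cell miRNAs went the other way, with 312926 against 350015 RPM. The part of these lists in the difference was not tested.

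Before surgery all 5 members had higher values in the rats that later regenerated strongly, between 0.41 ± 0.26 for miR-196b-5p and 0.82 ± 0.39 for miR-196c-5p on the log2 scale. None passed the test (FDR 0.698 to 0.725), and 0 of 645 miRNAs were called at baseline (0%), with 42 at an unadjusted p under 0.05. The 5 relatives by sequence were higher in these rats as well, between 0.16 ± 0.23 for miR-100-5p and 0.84 ± 0.39 for miR-125b-5p. The direction was thus not particular to the members. Of all 645 miRNAs, 45.3% had a log2 fold change below 0 at baseline. For miR-196c-5p, strong regenerators had 13.2 to 48.9 RPM with a median of 28.1 and weak ones 9.95 to 26.7 RPM with a median of 17.5. At week 4, miR-10b-5p had 311 to 848 RPM in strong regenerators (median 420) and 480 to 1291 RPM in weak ones (median 762), with -0.67 ± 0.31 (FDR 0.851). The leukocyte miRNAs had medians of 21740 RPM in the strong and 33341 RPM in the weak regenerators at that week. Platelet miRNAs (81958 against 88141 RPM) and liver miRNAs (10889 against 11877 RPM) were also lower in the strong ones. Red blood cell (296856 against 287326 RPM), endothelial (15701 against 12680.5 RPM) and muscle miRNAs (2806 against 1970 RPM) were higher. The part of these lists in the value of miR-10b-5p was not tested. At week 1 the values ran from -0.62 ± 0.37 for miR-10a-5p to 0.43 ± 0.31 for miR-10b-5p. Of 645 miRNAs 0 were called at week 1 (0%) and 0 at week 4 (0%), with 32 and 25 at an unadjusted p under 0.05. DESeq2 and limma-voom also called 0 at baseline, week 1 and week 4.

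**Figure D4:**
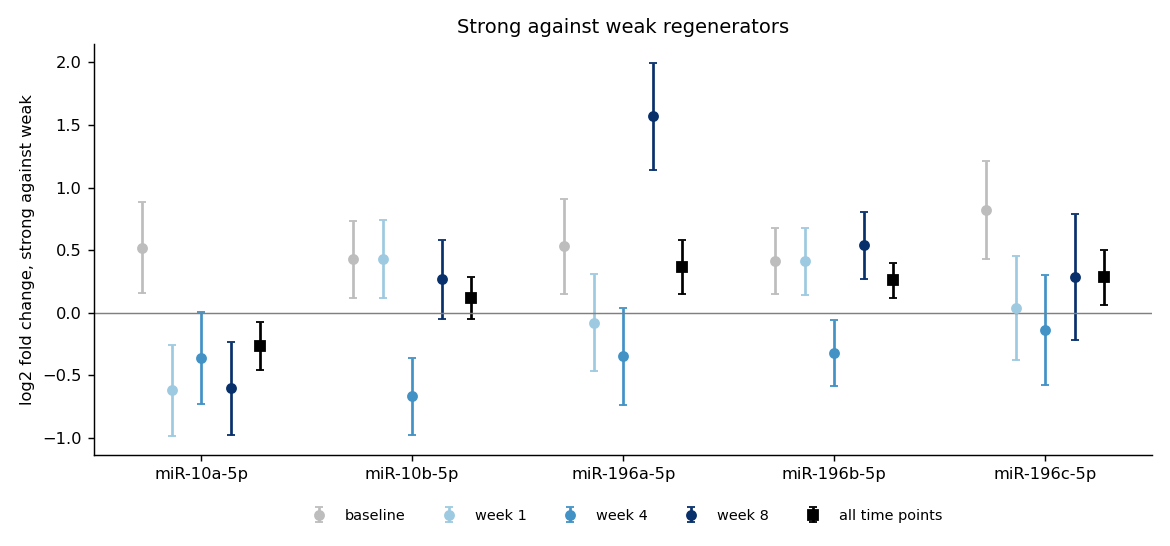
Log2 fold changes of strong against weak regenerators for the 5 members at each time point and over all time points, with bars of 1 SE of edgeR's fit over 48 samples. miR-196a-5p at week 8 lies at 1.57, and no value passes an FDR of 0.05.

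The change from baseline was compared between the groups by an interaction term, and none of the members was called. The contrast at week 4 was -1.10 ± 0.44 for miR-10b-5p (FDR 0.532), where 5 of 6 strong regenerators were below their own baseline and 5 of 6 weak regenerators above it. For miR-10a-5p it was -1.14 ± 0.52 at week 1 (FDR 1.0) and -1.12 ± 0.52 at the last time point (FDR 1.0), and 6 of 6 strong regenerators were below baseline at both weeks, against 4 and 5 of 6 weak ones. Without weak regenerator 3, whose miR-10a-5p reached 1980 RPM, the value at week 1 was -0.34, and without weak regenerator 26, at 960 RPM, the value at week 8 was -0.57. For miR-196a-5p at week 8 it was 1.04 ± 0.57 (FDR 1.0), and 6 of 6 rats in both groups were below baseline. Over all miRNAs, 0 of 645 interactions were called for each week (0% each), with 27, 38 and 26 in the order of the weeks at an unadjusted p under 0.05, and DESeq2 and limma-voom called 0.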

How the data were processed

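Small RNA of plasma was sequenced by the authors from libraries made by single-adapter ligation. Per the methods and the submitters' processing notes, adapters were trimmed with cutadapt 3.3, and Bowtie 1.3.0 and miRDeep2 placed reads first on the genome and then, with 1 mismatch allowed, on miRBase entries for rat. The notes list a human genome build, while the methods give a rat one. The authors deposited raw read counts for 645 mature miRNAs and 3 spike-ins, 1 library per sample and without normalization.

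From these counts, RPM was computed on the miRNA total. Tests across miRNAs used R 4.3.3 and edgeR 4.0.16 (quasi-likelihood method of version 3, TMM normalization, an independent filter on mean abundance after the rule of DESeq2, Benjamini-Hochberg adjustment over all miRNAs tested, FDR under 0.05, two-sided). The weeks were compared in 1 fit of 48 samples, and strong and weak regenerators with the time point as a covariate or by group means. The 4 samples of a rat were treated as independent, as the study names no term for the animal, and a fit with a block for each rat was among the alternatives. The pairing comes from the animal in the labels; deviations from group means correlated by 0.107 on average within a rat and by -0.029 between rats. Ratios added 0.5 to each count and were tested by exact permutation of signs, and rat means by exact permutation of groups, in Python 3.11.15 with numpy 2.4.6 and pandas 2.3.3. Fits were tested on simulated data. Of 1128 pairs of samples 0 were identical. The limit of precision is the depth of 393259 to 1586398 miRNA reads.

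Named are the members, their 3p arms with miR-615, the 5 relatives of miR-10 by sequence, the 3 nearest miRNAs of each member by Pearson r, and UniSp2. The members and lists were chosen with earlier results of these data known. Alternatives were RLE (DESeq2's size factors), library size or UniSp2 scaling, filterByExpr or no filter, DESeq2 1.42.0, limma-voom 3.58.1, summed families, summed samples, fewer time points, other pseudocounts and each rat left out. Sequences are from RefSeq (GRCr8), which held 14 of the 16 miRNAs named as members or relatives, and no coordinates are given because the build differs. Spike-ins other than UniSp2, the treatment of each rat and bone volumes were not used here.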

Additional observations from a re-analysis of the deposited data

Results flagged for a closer look

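In 4 of the 40 groups of 6 samples (5 members in 2 regeneration groups at 4 time points), 1 sample lay far from the other 5 by Dixon's criterion. For normally distributed values chance meets it in about 1 in 20 groups. It was applied to RPM without logarithms, in groups that share rats, so this rate may not hold here. miR-10a-5p reached 1980 RPM in weak regenerator 3 at week 1, where the other 5 weak regenerators had 230 to 522 RPM. It reached 960 RPM in weak regenerator 26 at week 8, where the others had 159 to 405 RPM, and 452 RPM in strong regenerator 29 at week 8, where the others had 200 to 257 RPM. miR-196a-5p was at 313 RPM in weak regenerator 25 at week 4, where the others had 43.6 to 103 RPM, and miR-196b-5p was highest of its group in the same sample, at 556 RPM. The fall of miR-10a-5p at week 8 held without each of these rats.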

How the results depend on the processing

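The falls of the 5 members at week 8 kept their direction and call under all 22 alternative settings, in 110 of 110 values, with log2 fold changes from -0.51 to -3.62. Of 708 values under alternatives for 33 log2 fold changes of members, 670 kept direction and side of the threshold. In both counts the value of a summed family was entered for each of its members, and 12 settings left out 1 rat each. These values are therefore not independent of each other. Scaled to UniSp2, 3 members were called at week 1, 2 at week 4 and 5 from week 4 to week 8, and 63, 499 and 454 miRNAs in all at week 4, week 8 and from week 4 to week 8. No member was called at week 1 without the filter or by limma-voom (0 each), and the miRNAs called there in all numbered 25 without the filter and 32 with library size alone. From week 1 to week 4 DESeq2 called 1 miRNA. Between strong and weak regenerators at week 8, DESeq2, limma-voom, UniSp2 scaling and a fit of that week alone called 0 miRNAs. The cause of these shifts was not tested.

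When the samples of an animal were paired by a block, 0 members were called at week 1 (miR-196a-5p -0.71, FDR 0.0745) and 4 miRNAs from week 1 to week 4; the block changed no other call of a member. Values near 0 changed sign: miR-10b-5p at week 4 was -0.25 with UniSp2 scaling and -0.091 as the family sum, and between strong and weak regenerators over all time points -0.021 with summed samples and -0.13 as the family sum. The rat means of miR-10b-5p differed by -0.024 without baseline and -0.0041 without week 8, and those of miR-10a-5p by 0.0029 without week 8. The difference of miR-196a-5p was not near 0 over all time points, at 0.46, but was -0.011 without week 8, so it rested on week 8. Summed, the miR-196 family was not called at week 1 (-0.56, FDR 0.0699) or week 4 (-0.49, FDR 0.251).

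Each rat was left out in turn, and values are given as the lowest and highest. Members called numbered 0 to 2 at week 1, 1 to 2 at week 4 and 1 to 3 from week 4 to week 8. All miRNAs called numbered 24 to 47 at week 1, 0 to 1 from week 1 to week 4, and between strong and weak regenerators 0 to 2 over all time points, 0 to 1 at weeks 1 and 8, and 0 to 9 and 0 to 1 for the changes from baseline at weeks 4 and 8. The call of miR-196a-5p at week 1 was lost without strong regenerators 5, 21, 23 or 29 or weak regenerators 3, 7, 16 or 25 (-0.67 to -0.90, FDR up to 0.142), and at week 4 it was gained without weak regenerator 25 (-0.99, FDR 0.0387). From week 4 to week 8 miR-10a-5p lost its call without strong regenerators 5, 17, 23 or 29 or weak regenerators 6 or 7 (-0.52 to -0.68), and miR-196a-5p without weak regenerators 3, 7 or 25 (-0.69 to -0.78). miR-10b-5p gained a call at week 1 without strong regenerator 2 (-0.64, FDR 0.0493) and miR-196c-5p without weak regenerator 6 (-0.82, FDR 0.047). miR-10b-5p ran from -0.0091 (without weak regenerator 7) to 0.24 at week 4, and from -0.024 (without strong regenerator 29) to 0.18 between strong and weak regenerators over all time points.

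The change of the log2 ratio of miR-196a-5p to miR-196b-5p at week 1 ran from -0.54 to -0.37 and lost its call without any of 9 rats. That of miR-10a-5p to miR-10b-5p ran from -0.027 to 0.30 at week 1 and from -0.41 to -0.26 at week 4, where it was lost without any of 7 rats. The 5p to 3p ratio of miR-10a ran from -0.70 to -0.47 at week 1, lost without any of 8 rats, and from -0.24 to 0.13 at week 4, and that of miR-10b from -0.67 to -0.39 and from -0.079 to 0.21. The exact tests of miR-196a-5p to miR-196b-5p at weeks 4 and 8 and of both 5p to 3p ratios at week 8 passed without each rat (highest adjusted p = 0.00586). miR-196c-5p, with at most 34 reads in a library, is the member whose values depth limits most.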
